A study of Mus musculus with 6 samples.

Results

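The genes described here make, break down and read the cyclic nucleotides cAMP and cGMP in the dorsal root ganglion (DRG). They are the adenylyl cyclases (Adcy with a number), the cyclic nucleotide phosphodiesterases (Pde with a number and a letter), the subunits of the cAMP-dependent kinase PKA, the cGMP-dependent kinases Prkg1 and Prkg2, the Epac proteins Rapgef3 and Rapgef4, the natriuretic peptide receptors and both chains of soluble guanylyl cyclase (Gucy1a1 and Gucy1b1). The members were chosen by symbol among protein-coding genes of the deposited count table. A total of 48 had a row among the 47937 rows of the table, and 45 of them had at least 10 counts over all libraries, out of 20006 genes and loci that did.

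As background, adenylyl cyclases make cAMP when a stimulatory G protein is activated by a receptor, and cAMP then opens cyclic nucleotide-gated channels, activates the Epac exchange factors and releases the catalytic subunits of PKA from their regulatory subunits. Phosphodiesterases end the signal by hydrolysing cAMP, cGMP or both, and cGMP comes from soluble guanylyl cyclase, the nitric oxide receptor, or from membrane guanylyl cyclases that bind natriuretic peptides. In nociceptors this pathway is best known for the sensitization that follows inflammatory mediators.

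RNA sequencing was done on DRGs of the cervical, thoracic and lumbar levels, in 3 control and 3 Tlx3cko libraries. All were C57BL/6 mice of about 2 months. Tlx3cko mice carried floxed Tlx3 alleles (Tlx3f/f) together with SNS-cre, in which the Nav1.8 promoter drives Cre in most nociceptors; Tlx3, a homeobox transcription factor, is then left intact in cells without Nav1.8. The labels give the controls as wild type, and whether their Tlx3 alleles were floxed is not given in the sources used here. The comparison asked which transcripts depend on Tlx3 in Nav1.8+ neurons.

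Libraries held 11458299 to 18775628 counts, and members took 0.394% to 0.425% of them. Tlx3 itself, the targeted gene, had 1973, 2256 and 1941 normalised counts in controls and 1652.5, 1380.4 and 1452 in Tlx3cko DRGs, a level 72.7% of control (log2 fold change −0.46 ± 0.09 SE, edgeR adjusted p = 0.0122). Normalised counts are the deposited counts put on a common library size of 14970767, the mean of the effective sizes. The libraries did not match in sex: control replicates 1 and 2 had 591 and 493 counts of Xist and 0 of the Y-linked Ddx3y, whereas the other 4 libraries had at most 2 counts of Xist and 273 to 525 of Ddx3y. All 8 markers of DRG neurons were present, and their summed level was 169600 to 182500 normalised counts in controls and 179500 to 192300 in Tlx3cko DRGs. Of these 8, Scn10a, the Nav1.8 gene whose promoter drives the Cre, rose from 24208 ± 1097 to 32659 ± 2160 (log2 fold change 0.43 ± 0.07 SE, edgeR adjusted p = 0.00281) and the other 7 were not called. Values with sex as a term in the model, or with the 4 libraries with Y-linked counts only, are given beside some results only. Control replicate 3 was the only control among those 4 libraries. With sex as a term the genotype estimate rests on that same control library, so the fits are not independent of each other. Sex as a term also moved estimates of other members, none of them called. Examples are log2 fold changes of 0.05 to 0.53 for Npr1 and 0.96 to 1.46 for Pde9a. Others moved down, such as Npr3 from −0.57 to −0.95 and Pde7a from −0.02 to −0.299. A result given without such a value is therefore not shown to be stable to sex.

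Among the 45 tested members, 2 fell in Tlx3cko DRGs and none rose (edgeR's quasi-likelihood test, Benjamini-Hochberg adjusted p under 0.05 over all 20006 genes). They were Pde4c, a cAMP-specific phosphodiesterase, and Prkar2b, the type II beta regulatory subunit of PKA. This is 4.44% of the tested members, beside 4.25% of all genes called in either direction, 2.56% called lower and 1.69% called higher. The unadjusted p was under 0.05 for 13 members (28.9%, beside 14.5% of all genes), and the normalised counts of the groups did not overlap for 14 members (31.1%, beside 19.7% of all genes). Estimates lay below 0 for 26 members and above 0 for 19, with a median log2 fold change of −0.04, near the median of 0.00 over all genes. For 26 members the 95% interval of the fold change stayed within 1.5-fold in either direction, and for 34 within 2-fold. Over all genes tested, 47.4% had an interval within 1.5-fold. DESeq2 called 2 members lower and 1 higher, Rapgef4, beside 644 lower and 505 higher over all genes.

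**Figure D1:**
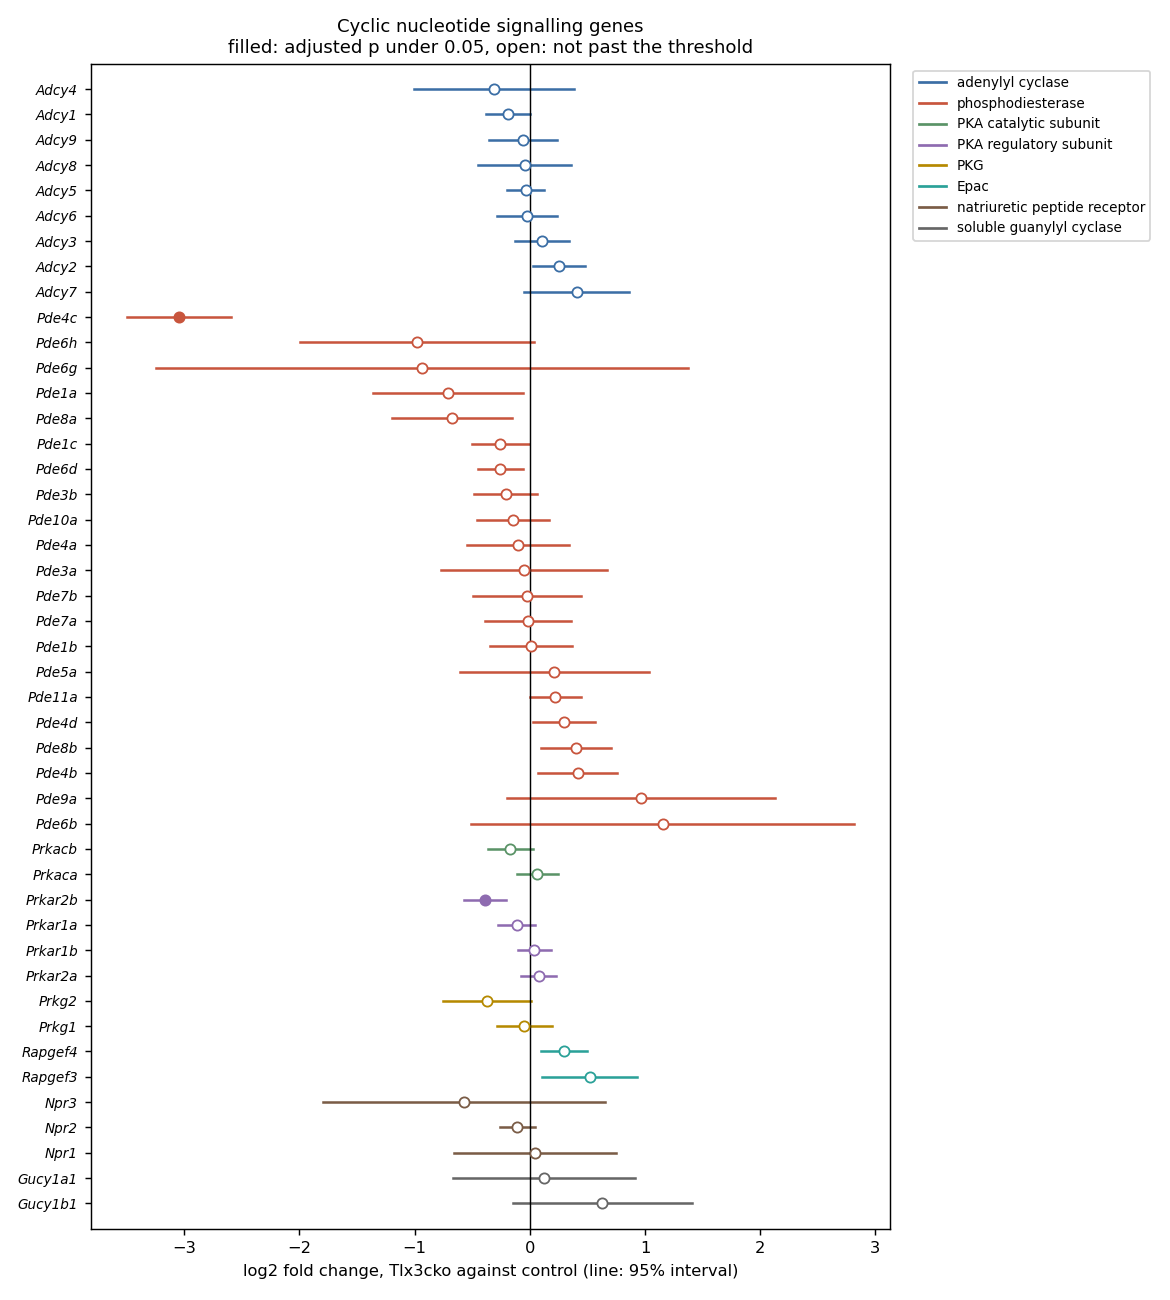
Log2 fold change (Tlx3cko minus control) of each tested member by role, with its 95% interval as a line; filled points have an edgeR adjusted p under 0.05. Pde4c at −3.05 lies far from the other members, and Prkar2b at −0.39 is the only other filled point.

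Pde4c (ENSMUSG00000031842, GRCm38 chr8:70723720-70751186, + strand) had 225, 213 and 285 normalised counts in control DRGs and 26.0, 28.9 and 32.5 in Tlx3cko DRGs. The lowest control library was thus far above the highest Tlx3cko library. The raw counts behind these values were 208, 214 and 357 in controls and 27, 22 and 33 in Tlx3cko mice. The mean fell from 241 ± 38.4 to 29.1 ± 3.25 (SD, n = 3 each), to 12.1% of control (log2 fold change −3.05 ± 0.21 SE, 95% interval −3.50 to −2.60, edgeR adjusted p = 3.61e-06). The call was kept when any 1 library was left out, with log2 fold changes of −3.14 to −2.91, and with sex as a term (−3.28, edgeR adjusted p = 1.5e-05). In bulk DRG, fewer cells of a type and less RNA per cell cannot be told apart.

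The other PDE4 genes, also cAMP-specific, did not pass the test, and their values are shown because they share a substrate with Pde4c; they were chosen after the values were seen. Pde4b had 199, 155 and 193 normalised counts in controls and 232, 278 and 221 in Tlx3cko DRGs, without overlap between groups (log2 fold change 0.42 ± 0.16 SE, edgeR adjusted p = 0.216). For Pde4d the counts were 625, 443 and 511 against 624, 640.4 and 675, so that 1 control library reached the Tlx3cko level (log2 fold change 0.30 ± 0.13 SE, adjusted p = 0.282 by edgeR). Pde4a overlapped between groups, at 129.5, 98.7 and 104 against 96.2, 89.2 and 122. Only Pde4c among the 4 genes was therefore past the threshold.

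**Figure D2:**
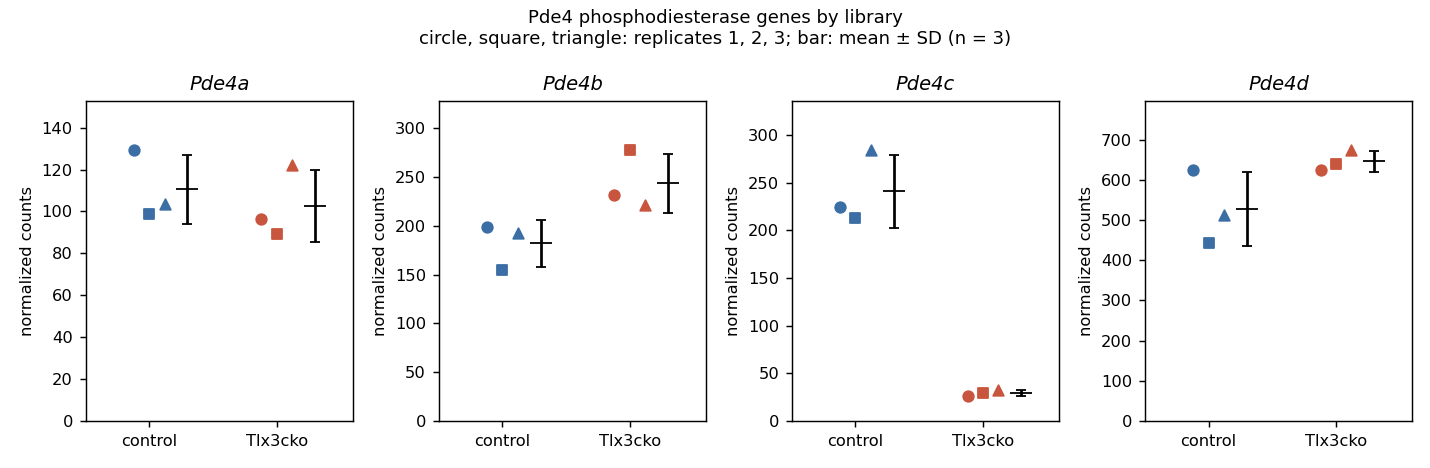
Normalised counts of Pde4a, Pde4b, Pde4c and Pde4d in each library; circle, square and triangle are replicates 1, 2 and 3, and the bar is mean ± SD (n = 3). The 3 control libraries of Pde4c sit at 213 to 285 and the 3 Tlx3cko libraries at 26.0 to 32.5, while Pde4a and Pde4d overlap between groups.

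Levels of different genes were compared per kilobase of annotated exon. By this measure Pde4c made up 31.4%, 37.2% and 40.6% of the PDE4 sum in the control libraries, beside 36.9% ± 3.45 (SD, n = 3) for Pde4d. In Tlx3cko DRGs its share was 5.10%, 5.35% and 5.87%, and the shares of Pde4d and Pde4b were 56.4% ± 0.953 and 24.2% ± 3.06. The PDE4 sum was 119 ± 13.9 normalised counts per kilobase in controls and 95.5 ± 4.0 in Tlx3cko DRGs, a ratio of 0.805 (exact permutation test, two-sided, p = 0.1, the smallest that 3 against 3 allows). These values depended on the length used. With the longest transcript of each gene, Pde4c held 26.9% ± 3.95 and Pde4d 47.8% ± 3.5 in controls, against 3.5% ± 0.274 and 63.8% ± 1.35 in Tlx3cko DRGs, and the PDE4 sum overlapped between groups, at 261 ± 32.9 against 241 ± 9.16 (ratio 0.922, exact two-sided permutation p = 0.4).

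**Figure D3:**
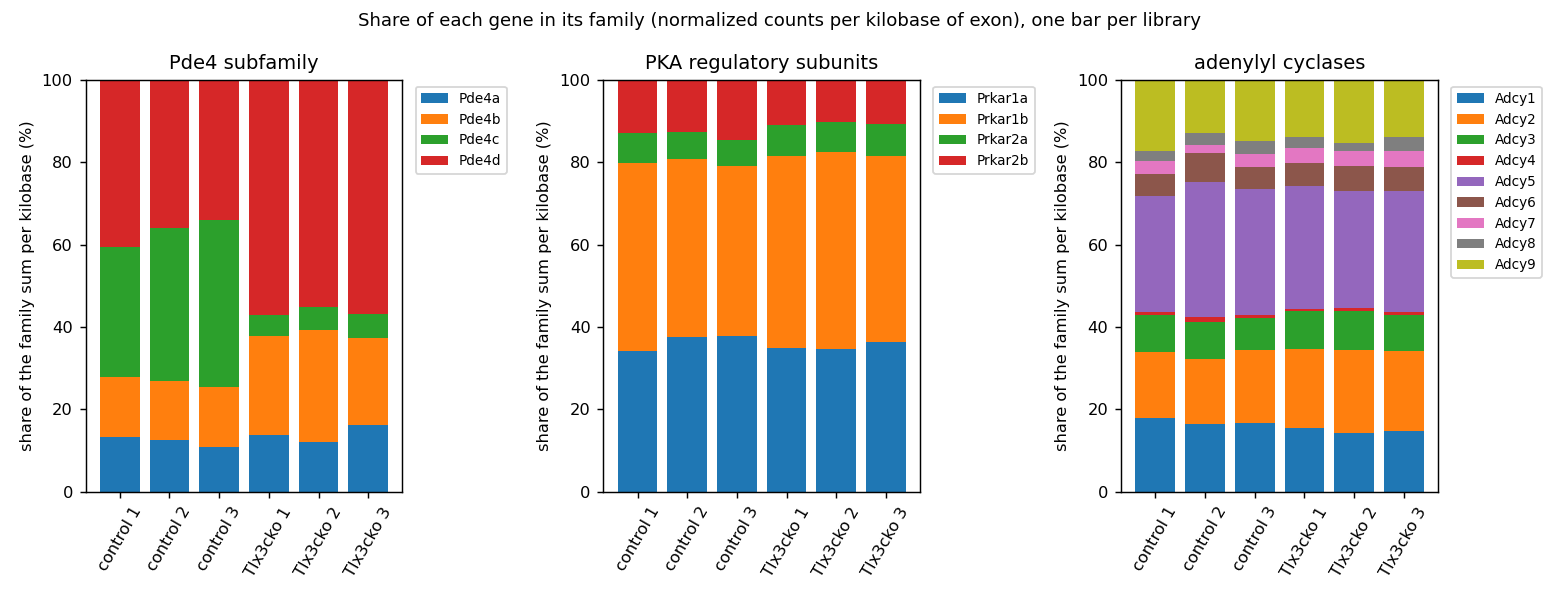
Stacked bars give the percent share of each gene in its family's sum of normalised counts per kilobase, by library, for the PDE4 subfamily, the PKA regulatory subunits and the adenylyl cyclases. Pde4c goes from 31.4% to 40.6% of the PDE4 sum in controls to 5.10% to 5.87% in Tlx3cko DRGs, and Prkar2b from 12.6% to 14.5% of the regulatory sum to 10.3% to 10.9%.

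Promoter windows, from 250 bases before to 50 bases after an annotated start, were taken from RefSeq (GRCm38.p6) and were found for 37 of the 45 tested members (72 windows). The cAMP response element (CRE), the site bound by CREB, is spelled TGACGTCA, and its shorter core TGACG; both strands were searched, and every full site holds the core. A window of each of the 2 called members is shown with a window of Prkar1a, the only member gene with a full CRE. Each is written in the direction of transcription, with full and core CREs in capitals. The Pde4c window is chr8:70723814-70724113 (+ strand), the Prkar2b window shown is chr12:32061228-32061527 (− strand) and the Prkar1a window shown is chr11:109650699-109650998 (+ strand).
Pde4c: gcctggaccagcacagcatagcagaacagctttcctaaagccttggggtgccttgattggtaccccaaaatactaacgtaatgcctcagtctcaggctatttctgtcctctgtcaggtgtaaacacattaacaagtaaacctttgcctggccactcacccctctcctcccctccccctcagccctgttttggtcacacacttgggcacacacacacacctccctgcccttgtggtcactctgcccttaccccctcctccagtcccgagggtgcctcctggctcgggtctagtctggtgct
Prkar2b: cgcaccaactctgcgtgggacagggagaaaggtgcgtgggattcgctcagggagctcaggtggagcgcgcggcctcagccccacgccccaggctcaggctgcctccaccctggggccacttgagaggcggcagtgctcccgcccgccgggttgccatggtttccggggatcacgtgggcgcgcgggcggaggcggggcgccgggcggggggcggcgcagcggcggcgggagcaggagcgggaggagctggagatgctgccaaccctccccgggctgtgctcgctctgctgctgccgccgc
Prkar1a: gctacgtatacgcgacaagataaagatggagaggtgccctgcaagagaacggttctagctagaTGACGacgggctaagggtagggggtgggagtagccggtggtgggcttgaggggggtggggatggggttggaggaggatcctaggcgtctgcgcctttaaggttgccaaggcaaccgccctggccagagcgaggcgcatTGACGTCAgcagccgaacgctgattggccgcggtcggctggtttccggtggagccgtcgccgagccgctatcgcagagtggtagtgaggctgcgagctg
No full or core CRE stood in the Pde4c window, which had 55.7% GC and 3 CpG, or in the Prkar2b window shown, which had 75% GC and 32 CpG. Another Prkar2b window, chr12:32060540-32060839 (68.3% GC, 28 CpG), held no full or core CRE either. In the Prkar1a window a full CRE began 49 bases before the start. A full CRE stood in 2.78% of member windows and in 1.79% of all 32851 windows. Those member windows were 2 overlapping windows of Prkar1a that hold the same site. By gene, a full CRE stood in 2.7% of members and in 2.03% of all genes. A core CRE stood in 25% of member windows and in 20.8% of all windows. Counted by gene, with any window of the gene, a core CRE stood in 16 of 37 members (43.2%) and in 23% of all 27025 genes. Members had 72 windows for 37 genes and all genes 32851 for 27025, so a member had more windows in which to hold one. Median GC was 56.8% in member windows and 52.7% in all windows, and the median number of CpG was 10 and 7. The part of window number or base composition in these counts was not tested. These letters describe the windows and say nothing of what binds there.

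Of the phosphodiesterases, 23 genes had a row and 21 were tested, with Pde4c the only one called. Their sum per kilobase was 1113 ± 8.07 in controls and 1021 ± 21.3 in Tlx3cko DRGs (ratio 0.918, exact two-sided permutation p = 0.1, the smallest possible). Pde6d, a prenyl-binding chaperone named after the rod enzyme, had the highest level per kilobase of the tested phosphodiesterases. It held 40.9% ± 3.18 of their sum in controls and 37.4% ± 1.43 in Tlx3cko DRGs. The row at the position of Pde2a, described below, is not in the sum. That row stood at 424 per kilobase in controls and 475 in Tlx3cko DRGs, beside 455 and 381 for Pde6d. The normalised counts of Pde6d were 937, 1070.2 and 968 against 844, 833 and 815. All 3 control libraries were above all Tlx3cko libraries, but the gene did not pass the test (log2 fold change −0.26 ± 0.09 SE, edgeR adjusted p = 0.166).

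The PDE8 genes, which encode cAMP-specific enzymes of high affinity, had estimates of opposite sign. Pde8a had 147, 97.7 and 109 normalised counts in controls and 69.3, 56.4 and 93.5 in Tlx3cko DRGs (log2 fold change −0.68 ± 0.24 SE, edgeR adjusted p = 0.173). Pde8b had 586, 403 and 453 in controls against 602, 713 and 590.5 (0.40 ± 0.14 SE, edgeR adjusted p = 0.161). Neither overlapped between groups and neither passed the test, and a test of the difference between the genes was not run. Pde8b passed the threshold without control replicate 1, its highest control library (log2 fold change 0.56, edgeR adjusted p = 0.0271), and without a filter on low counts (adjusted p = 0.0218). It did not pass with sex as a term (edgeR adjusted p = 0.389) or with DESeq2 (adjusted p = 0.083). Nor did it pass without any other single library (edgeR adjusted p up to 0.458).

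**Figure D4:**
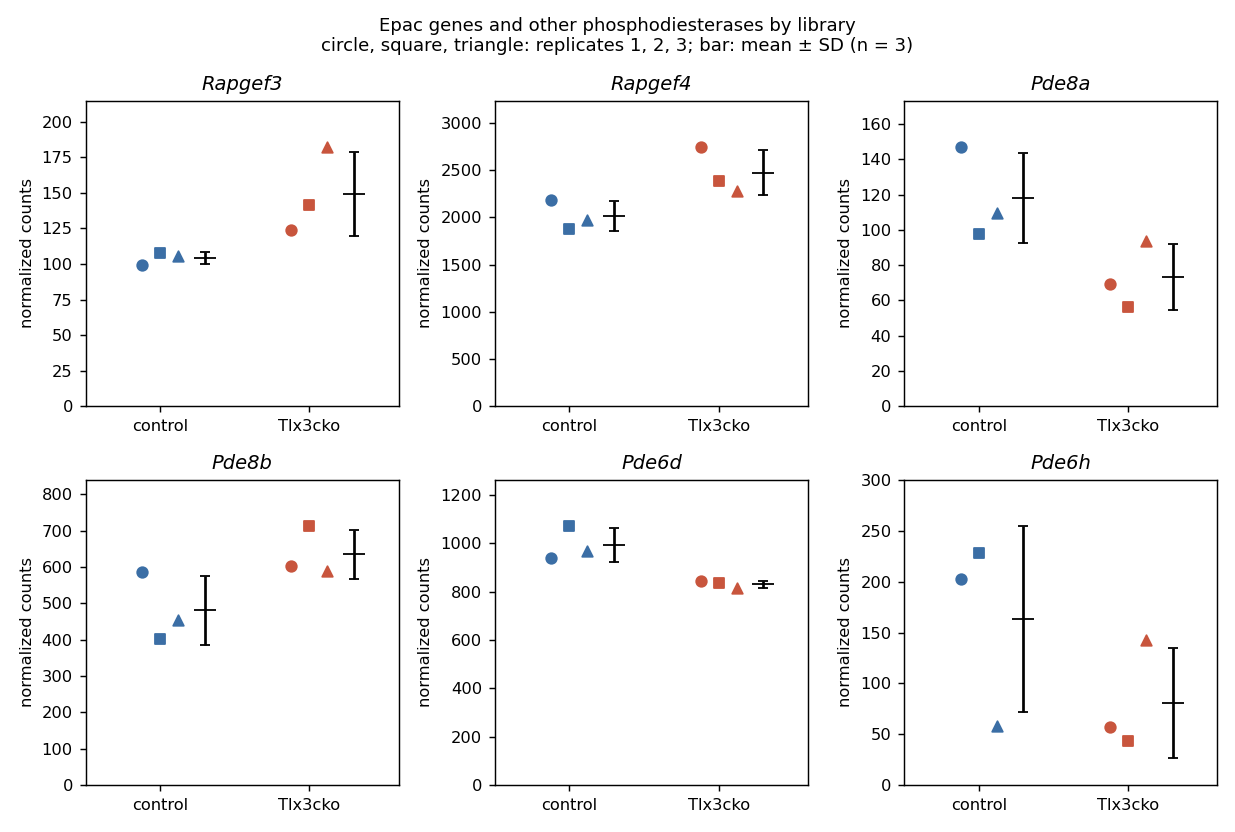
Normalised counts of Rapgef3, Rapgef4, Pde8a, Pde8b, Pde6d and Pde6h in each library; circle, square and triangle are replicates 1, 2 and 3, and the bar is mean ± SD (n = 3). Groups do not overlap for the first 5 genes, and for Pde6h control replicate 3, at 58.2, lies among the Tlx3cko libraries.

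Pde1c, a calmodulin-dependent enzyme that hydrolyses cAMP and cGMP, had 1249.9, 1063 and 1489 normalised counts in controls and 1128, 1034 and 1023 in Tlx3cko DRGs (log2 fold change −0.26 ± 0.11 SE, edgeR adjusted p = 0.318). The groups overlapped. Among the 4 libraries with Y-linked counts its log2 fold change was −0.49, with control replicate 3, its highest control library, as the only control. Pde1c passed the threshold in that fit alone, which with 1 control library cannot decide a call. Pde6h, named as the inhibitory subunit of the cone enzyme, varied widely among the libraries of each genotype. It had 203, 228 and 58.2 normalised counts in controls and 56.8, 43.3 and 143 in Tlx3cko DRGs (log2 fold change −0.98 ± 0.47 SE, edgeR adjusted p = 0.367), and the control libraries at 203 and 228 were those with Xist. Its estimate was 0.49 with sex as a term, and without a filter on low counts it was called lower (edgeR adjusted p = 0.000306).

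The remaining phosphodiesterases did not pass the test. Pde11a, which hydrolyses both nucleotides, was the next most abundant tested phosphodiesterase per kilobase after Pde6d. It did not overlap between groups, at 709, 786 and 816 against 832.5, 867 and 996 (log2 fold change 0.22 ± 0.10 SE, edgeR adjusted p = 0.337). Pde10a, Pde1b, Pde3b and Pde7a, at means of 189 to 777 normalised counts, had log2 fold changes of −0.21 to 0.01. Pde1a, at 77.9 ± 20.9 normalised counts in controls and 47.2 ± 15.7 in Tlx3cko DRGs, overlapped between groups (log2 fold change −0.71 ± 0.30 SE, edgeR adjusted p = 0.284), and Pde3a, Pde5a and Pde7b had log2 fold changes of −0.05, 0.21 and −0.02. Several members were too thinly counted to judge: Pde9a had a log2 fold change of 0.96 ± 0.54 SE, Pde6b, the rod catalytic beta subunit, 1.15 ± 0.77, and Pde6g −0.93 ± 1.07. Pde6b and Pde6g had 38 and 22 counts over all 6 libraries and lay just inside the minimum of 10. Outside it were Pde6a with 9 counts, Adcy10, the soluble adenylyl cyclase, with 3, and Pde6c with 0 in every library, which allows up to 3 counts per library (counting error only). Pde2a, a cGMP-stimulated enzyme, was not analysed as a member, as no row mapped to its symbol. The row at its position, ENSMUSG00000030653, is named Gm45837 in the annotation used here (GENCODE M21). Of its exonic bases 99.18% lie under another gene of the same strand. The annotation used for counting is not given in the sources used here, so whether these counts are of Pde2a was not settled. The row had a log2 fold change of 0.16 ± 0.08 SE (edgeR adjusted p = 0.357).

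None of the 9 tested adenylyl cyclases was called. Their sum per kilobase was 873 ± 61.0 in controls and 881 ± 13.3 in Tlx3cko DRGs, a ratio of 1.01 (exact two-sided permutation p = 0.9), and 7 of 9 had intervals within 1.5-fold. Adcy5, inhibited by calcium and by Gi proteins, had the highest level per kilobase and 30.4% ± 2.26 of the control sum. Its normalised counts were 1861, 1885 and 1952 in controls and 1874, 1832 and 1849 in Tlx3cko DRGs. These overlapped, and the interval of its log2 fold change was −0.19 to 0.12. Adcy1, a calmodulin-stimulated cyclase, had a log2 fold change of −0.19 ± 0.09 SE (edgeR adjusted p = 0.355). Adcy2 and Adcy7, both stimulated by G protein beta-gamma subunits, did not overlap between groups and had estimates above 0. Adcy2 went from 609 ± 64.6 to 727 ± 35.6 (0.25 ± 0.11 SE, edgeR adjusted p = 0.278), and its share of the cyclase sum from 16.5% ± 0.934 to 19.6% ± 0.658. Adcy7 went from 166 ± 51.2 to 220.1 ± 13.4 (0.41 ± 0.21 SE, edgeR adjusted p = 0.418). With sex as a term these estimates were 0.13 for Adcy2 and 0.17 for Adcy7. The other 5 cyclases (Adcy3, Adcy4, Adcy6, Adcy8 and Adcy9) had log2 fold changes between −0.31 and 0.11. For Adcy3, 22.1% of exonic bases lie opposite a gene on the other strand, and use of strand in counting is not given in the sources used here.

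PKA is held inactive by a dimer of regulatory subunits, of type I (Prkar1a, Prkar1b) or type II (Prkar2a, Prkar2b). Prkar2b (ENSMUSG00000002997, GRCm38 chr12:31958476-32061296, − strand) had 3904, 3988 and 4707 normalised counts in control DRGs and 3386, 3090.2 and 3150.2 in Tlx3cko DRGs. Every control library was above every Tlx3cko library, and control replicate 3 was the highest. The mean fell from 4199.8 ± 441 to 3209 ± 156 (SD, n = 3 each), to 76.4% of control (log2 fold change −0.39 ± 0.09 SE, 95% interval −0.57 to −0.20, edgeR adjusted p = 0.0204). The estimate was −0.55 with sex as a term (edgeR adjusted p = 0.00997). It was also −0.55 among the 4 libraries with Y-linked counts, where control replicate 3 was the only control. Both values set that highest control library against the Tlx3cko libraries, so they are not separate evidence. The call was lost without control replicate 3 (−0.30, edgeR adjusted p = 0.0764), without Tlx3cko replicate 2 (−0.35, adjusted p = 0.129) and without Tlx3cko replicate 3 (−0.37, adjusted p = 0.101).

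The other 3 regulatory subunits and both catalytic subunits did not pass the test, and the 95% interval of each fold change stayed within 1.5-fold. Prkar1b, the neuronal type I beta subunit and the highest member per kilobase, had 14495, 14218 and 13951 normalised counts in controls and 15006, 14950 and 13874 in Tlx3cko DRGs. The groups overlapped, at a log2 fold change of 0.04 (interval −0.10 to 0.18); 8.95% of its exonic bases lie under another gene of the same strand. The log2 fold changes of Prkar1a and Prkar2a were −0.11 ± 0.07 and 0.08 ± 0.07 (SE). Prkaca, the main catalytic subunit by level per kilobase, had 4306, 3605 and 3707 against 4156, 4115 and 3864, overlapping between groups (0.06, interval −0.12 to 0.24). Prkacb had a log2 fold change of −0.17 ± 0.09 SE (edgeR adjusted p = 0.437).

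Per kilobase, Prkar2b made up 12.8%, 12.6% and 14.5% of the regulatory sum in controls and 10.9%, 10.3% and 10.7% in Tlx3cko DRGs. Prkar1b was the largest part, with 43.3% ± 2.23 in controls and 46.5% ± 1.19 in Tlx3cko DRGs, followed by Prkar1a with 36.5% ± 2.05 and 35.3% ± 0.869. The regulatory sum itself was 8626 ± 278 against 8253 ± 215 (ratio 0.957). The ratio of regulatory to catalytic sums was 3.85, 4.73 and 4.55 in controls and 4.06, 4.11 and 4.18 in Tlx3cko DRGs, and the groups overlapped (exact two-sided permutation p = 0.4).

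**Figure D5:**
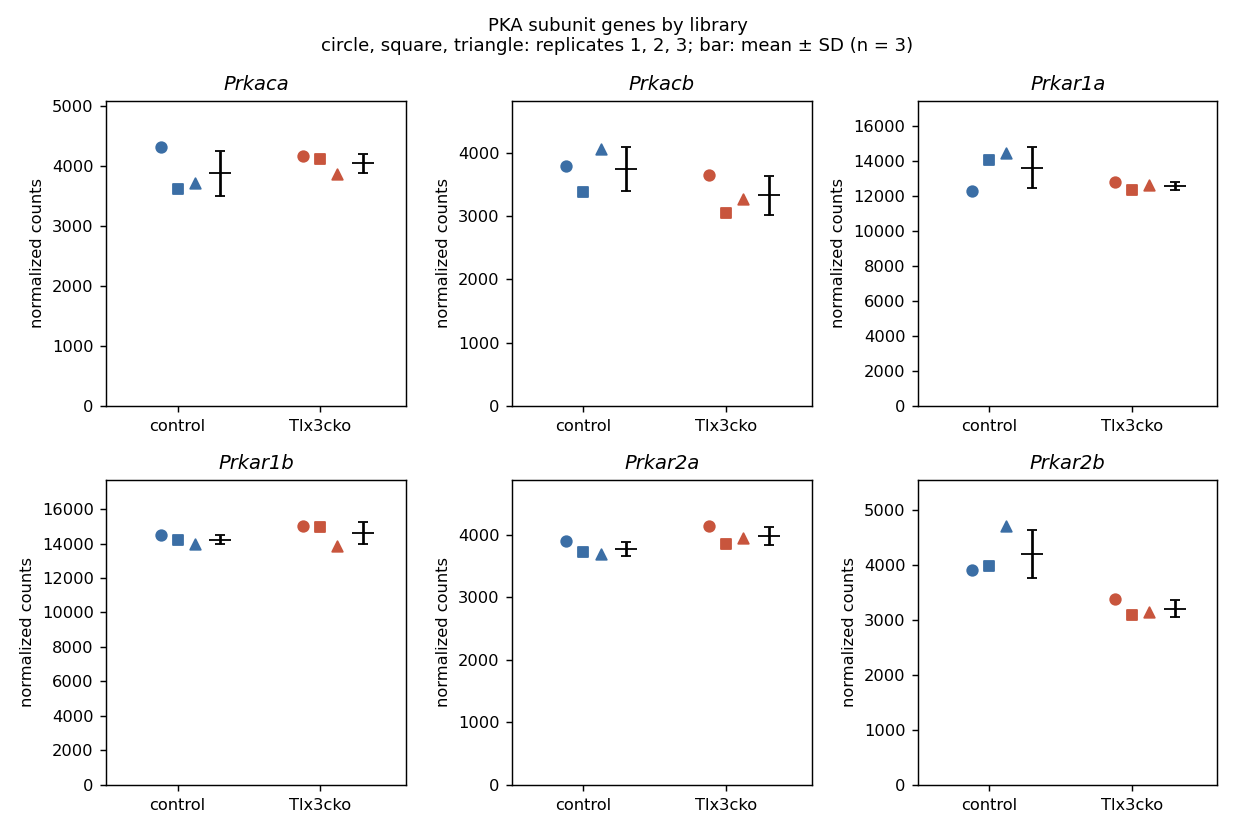
Normalised counts of the PKA subunit genes in each library; circle, square and triangle are replicates 1, 2 and 3, and the bar is mean ± SD (n = 3). Only for Prkar2b do the groups not overlap, at 3904 to 4707 in controls and 3090.2 to 3386 in Tlx3cko DRGs.

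The Epac proteins, which activate the small G protein Rap when they bind cAMP, had estimates above 0 and no overlap between groups, but neither passed the main test. Rapgef4 (Epac2), the major neuronal form, had 2189, 1875 and 1977 normalised counts in controls and 2742, 2389.5 and 2284 in Tlx3cko DRGs. Its mean was 2014 ± 160.2 in controls and 2472 ± 239.8 in Tlx3cko DRGs (log2 fold change 0.30 ± 0.09 SE, 95% interval 0.10 to 0.49, edgeR adjusted p = 0.102). DESeq2 gave an adjusted p of 0.0417, and edgeR without a filter on low counts 0.0223. Rapgef3 (Epac1) was lower in level, at 99.3, 108 and 105 against 124, 142 and 182 (0.52 ± 0.19 SE, edgeR adjusted p = 0.194). Per kilobase, Rapgef4 made up 94.8% ± 0.582 of the Epac sum in controls. This sum was 318 ± 23.3 in controls and 394 ± 31.9 in Tlx3cko DRGs (ratio 1.24, exact two-sided permutation p = 0.1, the smallest possible).

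In the cGMP arm no member was called. Npr2, the guanylyl cyclase receptor of C-type natriuretic peptide, held 98.1% ± 0.337 of the receptor sum per kilobase in controls. It had 2643, 2642 and 2564 normalised counts in controls and 2401, 2429 and 2456 in Tlx3cko DRGs, with no overlap (log2 fold change −0.11 ± 0.07 SE, edgeR adjusted p = 0.567). Npr1, the receptor of the atrial and B-type peptides, and Npr3, the clearance receptor, had 265 and 96 counts in total, too few for a narrow interval. Prkg1, the main cGMP-dependent kinase of sensory neurons, had 727, 821 and 908 against 701, 825 and 855, overlapping between groups (−0.05, interval −0.29 to 0.19). Prkg2 had 140.3, 168 and 132 in controls against 122, 105 and 112, without overlap (−0.37 ± 0.18 SE, edgeR adjusted p = 0.368). Of the soluble guanylyl cyclase chains, Gucy1b1 had 25.9, 16.0 and 23.9 in controls and 26.0, 38.1 and 38.4 in Tlx3cko DRGs. The groups barely separated (0.63 ± 0.36 SE, edgeR adjusted p = 0.484), and Gucy1a1 was as thinly counted, with a log2 fold change of 0.13 ± 0.37 SE that was −0.11 with sex as a term.

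Beside the members, 7 lists of other genes of the pathway held 60 genes, of which 49 were tested, 3 fell and 2 rose, beside 2.56% and 1.69% of all genes. With sex as a term 1 was called lower and 0 higher, and of the fits with 1 library left out, those without control replicate 3, or without replicate 2 or 3 of Tlx3cko, gave the same counts; without control replicate 2 none was higher, and without Tlx3cko replicate 1 only 1 was. Of the PKA inhibitor peptides and the related kinase Prkx, Pkig, an inhibitor of the catalytic subunit, was the only one of 4 past the threshold; Prkx did not overlap between groups either (log2 fold change −0.26 ± 0.09 SE, edgeR adjusted p = 0.153). Pkig fell from 449, 429 and 479 normalised counts in controls to 349, 278 and 248 in Tlx3cko DRGs, without overlap (log2 fold change −0.63 ± 0.14 SE, edgeR adjusted p = 0.0196). Its call was lost without control replicate 3 (edgeR adjusted p = 0.0764) and without replicate 2 or 3 of Tlx3cko (0.104 and 0.108), and likewise with sex as a term (0.0854) and among the 4 libraries with Y-linked counts (0.102). None of the 13 tested A-kinase anchoring proteins, which tether PKA, passed the test, nor did any of 7 genes of the CREB family and its coactivators, or Gnas and Gnal, the stimulatory G proteins. The nearest to the threshold among the anchoring proteins was Akap6 (0.31 ± 0.09 SE, edgeR adjusted p = 0.0762), named after its values were seen.

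Of the cyclic nucleotide-gated and HCN channel genes, Hcn3 fell. HCN channels carry the hyperpolarization-activated current, and members of the family differ in how strongly cAMP shifts their gating. Hcn3 had 618, 761 and 636 normalised counts in controls and 497, 531 and 423 in Tlx3cko DRGs (log2 fold change −0.48 ± 0.12 SE, edgeR adjusted p = 0.0452), without overlap between groups. Of its exonic bases, 17.1% lie opposite a gene on the other strand, and use of strand in counting is not given. Hcn2, the highest of the family in counts, had a log2 fold change of 0.04 with an interval of −0.13 to 0.20. The Hcn3 call was lost without any library but control replicate 1 (edgeR adjusted p = 0.0764 to 0.216), with sex as a term (0.395) and among the 4 libraries with Y-linked counts (0.322).

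Nppb, the B-type natriuretic peptide and a transmitter of itch-sensing neurons, had 251, 269 and 392 raw counts in controls and 2, 2 and 3 in Tlx3cko DRGs, at or under the floor of 3 counts per library (edgeR adjusted p = 2.6e-08). It was also on the list of markers of NP3 neurons. Bves, a cAMP-binding Popeye domain protein, rose from 141 ± 41.6 to 245 ± 9.72 normalised counts (log2 fold change 0.80 ± 0.20 SE, edgeR adjusted p = 0.0362). Among the fits with 1 library left out, the Bves call was kept only without control replicate 1, its highest control library (edgeR adjusted p = 0.00695). It was lost without any other single library (0.0858 to 0.126), with sex as a term (0.241) and among the 4 libraries with Y-linked counts (0.0625). Nos1, the neuronal nitric oxide synthase, had a log2 fold change of 0.10 ± 0.09 SE.

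Markers of several cell classes moved with genotype beside these results, and their part in them was not tested. Of the markers of non-peptidergic NP1 neurons, 5 of 6 fell, with summed levels of 16000 to 19190 normalised counts in controls and 8285 to 9346 in Tlx3cko DRGs. Of the NP2 markers 2 of 4 fell, at sums of 505 to 776 against 416 to 545, of the NP3 markers 7 of 8 (7486 to 8912 against 4951 to 5263), and of the TH C-LTMR markers 5 of 5 (4051 to 6775 against 1899 to 2034). Peptidergic markers rose in 3 of 5 cases, with sums of 21190 to 22600 in controls and 35890 to 38900 in Tlx3cko DRGs, and myelinated neuron markers in 2 of 6 (28560 to 30490 against 36410 to 38150). Among markers of non-neuronal cells, 3 of 5 fibroblast markers fell (sums 4280 to 4791 against 3312 to 3679), and 1 of 7 Schwann cell markers rose (Egr2; 34960 to 42360 against 37750 to 42700), as did 1 of 6 endothelial markers (Pecam1; 931 to 1228 against 1254 to 1348). Skeletal muscle markers, 1 of 6 of which rose (Myh4), ranged from 104 to 1839 in controls and from 1533 to 2845 in Tlx3cko DRGs. No marker was called among 4 of satellite glia (6853 to 7901 against 7889 to 8747), 6 of smooth muscle and pericytes (2019 to 2476 against 1924 to 2268), 7 of macrophages (811 to 990.4 against 739 to 848) and 5 of erythroid cells (1427 to 3719 against 1694 to 2295). Of 5 spinal cord and 5 adipocyte markers, 1 and 3 had enough counts to be tested, none was called, and the sums stayed at or under 144 and 21.6.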

How the data were processed

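Libraries from DRG RNA of both genotypes (3 control, 3 Tlx3cko) were sequenced as paired reads of 150 bases. The authors deposited raw read counts per gene, without normalization; per the labels' processing notes STAR 2.5.2a and the mm10 build were used, and the counting program, annotation and use of strand are not given in the sources used here. Gene names and exon lengths came from GENCODE M21 on GRCm38 (the same assembly as mm10): of 47937 rows, 47729 had Ensembl identifiers, 47224 matched a symbol, and 208 were loci outside the annotation, which stayed in the fit.

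Genes with at least 10 counts in total (20006) were normalised by TMM (factors 0.994 to 1.01) and tested with edgeR 4.0.16 (glmQLFit and glmQLFTest, genotype only) in R 4.3.3, with Benjamini-Hochberg adjusted p under 0.05 over all genes as the threshold. Standard errors were the log2 fold change divided by the root of F. The quoted level per kilobase used the union of annotated exons. The steps were tested on simulated data. Replicates of a genotype differed by more than sampling noise (chi-square per degree of freedom 4.46 to 10.7) and were kept as separate samples; the labels do not name the animals, so p-values may measure spread that is partly technical. Counting intervals and floors cover counting error only.

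Values are given per library for called members, the highest member per kilobase of each role, and members called only in an alternative (Pde1c, Pde6h, Pde8b and Rapgef4), and for others where groups do not overlap or a family is described, chosen after values were seen; in the pathway lists the called genes and up to 3 others are named, except for a result that is not reported here. Members and lists were chosen with earlier results of these data known. Alternatives were DESeq2 1.42.0, limma-voom (limma 3.58.1), other size factors and filters, the replicate number as a block, sex as a term, each library left out, a threshold of 0.01 and the longest transcript as length; the 4 libraries with Y-linked counts, and the fit without unannotated loci, were added after seeing the data.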

Additional observations from a re-analysis of the deposited data

How the results depend on the processing

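The direction and call of Pde4c were the same under every alternative, and Prkar2b lost its call at a threshold of 0.01 and without control replicate 3 or replicate 2 or 3 of Tlx3cko. Beside 2 members called lower and 0 higher, 1 was called lower at a threshold of 0.01, DESeq2 called 1 higher and the unfiltered fit 2; with each library left out in turn, 1 to 2 were called lower and 0 to 1 higher. Of the pathway list genes, 3 lower and 2 higher in the main test, 1 was called lower and 0 higher with sex as a term, and likewise at a threshold of 0.01; none was called higher among the 4 libraries with Y-linked counts, and leaving out 1 library gave 1 to 3 lower and 0 to 3 higher. Over all genes (512 lower, 339 higher), the unfiltered fit called 858 and 671, sex as a term 334 and 153, and a threshold of 0.01 278 and 140; 193 were higher among the libraries with Y-linked counts, and leaving out 1 library gave 310 to 530 lower and 175 to 408 higher. The fits with 1 library less have fewer samples, and the other causes were not tested.

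Same-numbered control and Tlx3cko libraries did not deviate together (correlations over 16439 genes of −0.0873, −0.0212 and −0.105). These values gave no sign that the replicate numbers pair the samples, but they cannot exclude a weak pairing. With the number as a block, 2 members were lower and 0 higher, and 1 pathway list gene was higher. Over all genes, that fit called 462 lower and 308 higher. DESeq2, limma-voom and the other size factors moved the median of all genes by under 0.1 on the log2 scale.

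Sign changes touched only members that were not called. Pde3a was at 0.0304 with limma-voom; with sex as a term Adcy6 was at 0.0875, Pde6h at 0.49 and Gucy1a1 at −0.11, and among the libraries with Y-linked counts at 0.0859, 0.49 and −0.11. Leaving out 1 library at a time gave log2 fold changes of −0.0799 to 0.0488 for Adcy6, −0.24 to 0.11 for Adcy8, −0.20 to 0.0874 for Adcy9, −0.29 to 0.014 for Pde10a, −0.0943 to 0.18 for Pde1b, −0.31 to 0.26 for Pde3a, −0.25 to 0.0191 for Pde4a, −0.13 to 0.16 for Pde7a, −0.16 to 0.15 for Pde7b, −0.13 to 0.0369 for Prkg1, −0.28 to 0.21 for Npr1 and −0.0798 to 0.33 for Gucy1a1. Depth limits the members with few counts, such as Pde6b, Pde6g, Pde9a, Npr3 and both soluble guanylyl cyclase chains, whose intervals reach beyond 1.5-fold.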
